A study of Mus musculus with 2 samples.

Results

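Dendritic cells (DC) were a rare class among the lung cells that were sorted for the fluorescence of their own retinoids, with 130 DC barcodes among 19622 cells kept. A barcode was called a DC when it held at least 5 unique molecular identifiers (UMIs) of *H2-Ab1*, at least 2 UMIs of *Ccl17*, *Cd209a*, *Flt3*, *Xcr1* and *Ccr7* together, at most 2 of *C1qa*, *C1qb* and *C1qc* together, and none of *Cd79a*, *Cdh5* or *Epcam*. Library 1 gave 48 DC of 9634 cells, or 0.498% (exact Clopper-Pearson 95% interval 0.368 to 0.660%), and library 2 gave 82 of 9988, or 0.821% (0.653 to 1.02%). The DC were then split by the share of their UMIs that came from 6 stromal genes (*Col1a1*, *Col1a2*, *Col3a1*, *Mfap4*, *Dcn* and *Pdgfra*), into stroma-low DC, with less than 0.1%, and stroma-high DC, with at least 0.1%. There were 20 stroma-low and 28 stroma-high DC in library 1 and 31 and 51 in library 2. All values used by these rules chose the cells and are given as a description.

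The lungs were from male C57BL/6 mice, wild type and 3 months old, and were digested with pronase and collagenase. Live single cells that emitted light at 455 nm (called UV-positive) were sequenced as 2 libraries of 1 condition. The number of mice behind each library is not given in the sources used here. A p-value measures how far differences between groups varied from library to library, with 1 estimate over all 6 groups of the fit. This spread may be technical. The sort was made to find which lung cells hold retinoid, the vitamin A compounds that fibroblast-like cells of the lung store as esters. No antibody against a DC protein was part of the sort that is described for these libraries, and the names of all classes below rest on counts of transcripts alone.

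DC take up antigen and present peptides from it to T cells on MHC class II molecules. Conventional DC depend on the receptor Flt3 and fall into cDC1, which carry Xcr1, need the factors Irf8 and Batf3 and cross-present antigen, and cDC2, which carry lectins such as Cd209a and Mgl2 and present mainly to helper T cells. A DC of either kind that matures turns on Ccr7, the receptor that guides it to lymph nodes.

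The class II genes are read together through a promoter module, in which an X box is bound by the RFX complex and a Y box by NF-Y, and Ciita, the class II transactivator, is recruited to both. The promoters of 4 class II genes whose levels are given below are printed, all of which held the pair of motifs. Capitals mark GCAAC, a core of the X box, and ATTGG, the core of the Y box. Each run is 85 bases, 5′ to 3′ on the strand of the gene, from the RefSeq promoter table on GRCm38.p6, with H2-Aa at chr17:34287859-34287943 on the minus strand, H2-Eb1 at chr17:34305747-34305831, H2-Oa at chr17:34092259-34092343 and H2-Ob at chr17:34238785-34238869 on the plus strand.
H2-Aa: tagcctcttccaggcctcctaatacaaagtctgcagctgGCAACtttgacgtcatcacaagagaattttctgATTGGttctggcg
H2-Eb1: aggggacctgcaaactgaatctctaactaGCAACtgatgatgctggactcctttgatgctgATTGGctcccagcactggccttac
H2-Oa: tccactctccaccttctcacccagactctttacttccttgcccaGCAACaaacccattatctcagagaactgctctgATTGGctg
H2-Ob: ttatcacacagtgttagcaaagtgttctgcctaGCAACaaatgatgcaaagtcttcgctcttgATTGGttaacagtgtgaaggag
The pair stood at nearly the same place in all 4, with GCAAC starting 76 to 91 bases and ATTGG 43 to 59 bases before the annotated start, and 30 to 33 bases from one to the other. Both strands of the 250 bases before each start were searched, and the letters of the motifs do not overlap. GCAAC was in 29.9% of all 32851 promoters in the table, ATTGG in 33.8%, both in 10.6%, and the pair on 1 strand with starts 28 to 36 bases apart in 0.359% (118 promoters). Of the 9 class II entries searched, 5 held the pair, these 4 and H2-Eb2. The pair in the printed runs thus follows from which were printed. The entries of H2-DMb1 and H2-DMb2, whose levels are also given below, held ATTGG but no GCAAC. *H2-Ab1*, *Ciita* and *Klrd1* had no entry. A match is a description of letters and was not tested as a binding site.

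The stromal split fell in a gap in library 1, where stroma-low DC reached 0.0558% and stroma-high DC began at 0.125%. In library 2 a single stroma-low barcode lay at 0.0876%, close under the threshold, and the lowest stroma-high barcode was at 0.123%. None of the 6 stromal genes had a UMI in 14 of the 20 and 20 of the 31 stroma-low DC. Few DC stood at the edge of the other limits: 1 and 2 DC in libraries 1 and 2 held 5 or 6 *H2-Ab1* UMIs, and 3 and 5 held exactly 2 UMIs of the 5 DC genes. Just outside that limit, with 1 such UMI, were 3 and 9 cells, whose median was 34 and 16 *H2-Ab1* UMIs, against 61 and 30 in the DC with exactly 2.

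**Figure D1:**
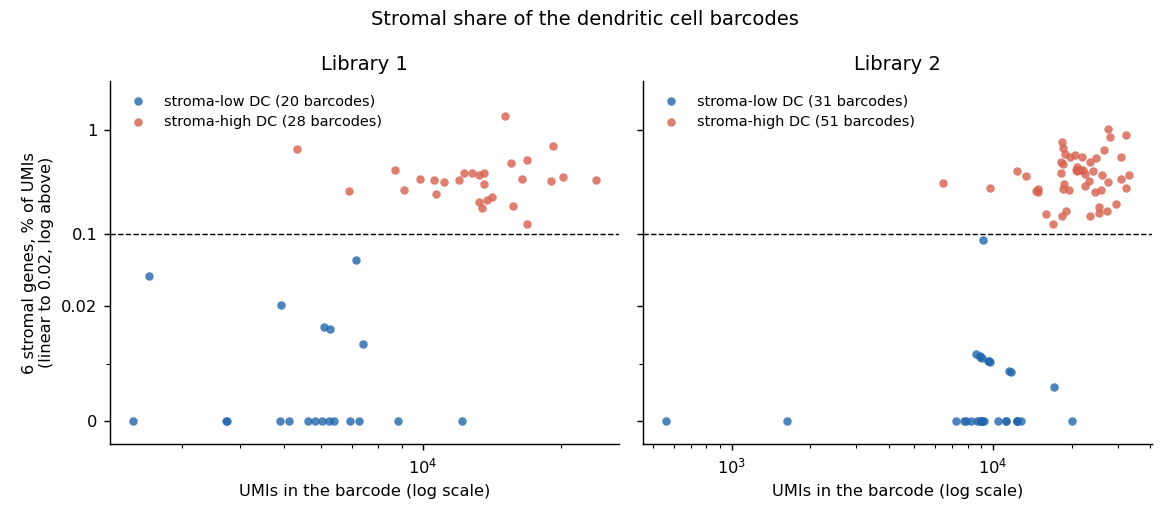
Each point is 1 DC barcode, with its total UMIs on a log axis and the share of UMIs from 6 stromal genes on an axis that is linear to 0.02% and logarithmic above, for library 1 (left) and library 2 (right). Stroma-low barcodes (20 and 31) lie under the dashed line at 0.1% and stroma-high barcodes (28 and 51) above it, toward higher UMI totals.

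Stroma-low DC held a median of 6058.5 UMIs and 1640 genes in library 1 and 9137 UMIs and 2393 genes in library 2, and stroma-high DC held 13481.5 and 21572 UMIs. For comparison 4 other groups were taken by gates on the same counts, all without *Cdh5* and *Epcam*. C1q macrophages (44 and 21 cells) held at least 10 C1q UMIs, monocytes (82 and 58) at least 3 UMIs of *Ms4a6c*, *Ifitm6* and *Gngt2* with few or no C1q and DC transcripts, B cells (32 and 63) at least 2 UMIs of *Cd79a*, and these 3 groups were stroma-low. Fibroblasts (7745 and 7101) were at or above 0.1% stromal UMIs with none of the C1q, DC and *Cd79a* UMIs and none of *Laptm5*, *Tyrobp* and *Ptprc*. The groups' median depths ran from 1931 UMIs in B cells of library 1 to 7018 in fibroblasts of library 2. The libraries shared 23 barcode sequences, 1 of them a DC. Levels are in CPM (a gene's UMIs per 1000000 UMIs of that group and library), library 1 first, with 1 value per library (n = 2), and 3' counts are not comparable between genes.

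The marker genes fixed for the label were found in the stroma-low DC of both libraries. *H2-Ab1*, the beta chain of the class II molecule I-A (chr17:34257689-34269419), was at 11907 and 9832 CPM. *Cd209a*, the mouse lectin nearest to DC-SIGN (chr8:3743397-3748984), was at 1079 and 526 CPM and had a UMI in 19 of 20 and 18 of 31 barcodes. *Flt3*, the growth factor receptor of conventional DC, was at 92.0 and 85.5 CPM, in 6 of 20 and 18 of 31 barcodes. These 3 genes are part of the rule. *Mgl2*, a galactose-binding lectin outside the rule (chr11:70130329-70137550), was at 1539 and 1220 CPM, in 15 of 20 and 19 of 31 barcodes. *Ccl17*, a chemokine that draws Ccr4-bearing T cells and a rule gene, differed most between libraries, with 192 and 1855 CPM and a UMI in 6 of 20 and 21 of 31 barcodes. *Zbtb46*, a transcription factor of conventional DC outside the rule, was at 16.7 and 23.0 CPM (2 and 7 UMIs), and at 0 in C1q macrophages of both libraries. The rule used 4 of the 5 label markers, so that *Mgl2* alone among them bears on the label. *Mgl2* was also found in 31 of 44 and 16 of 21 C1q macrophages, and so does not tell DC from these.

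Markers of cells outside the myeloid lineage were mostly at 0 or near it in the stroma-low DC, and those of monocytes and macrophages were not. The monocyte-derived list summed to 5151 and 1549 CPM in DC (616 and 471 UMIs), 30786 and 12330 in monocytes and 19270 and 12263 in C1q macrophages. The macrophage list summed to 560.2 and 480.1 CPM (67 and 146 UMIs) in DC and 24525 and 19345 in C1q macrophages. The rule itself set *Cdh5*, *Epcam* and *Cd79a* to 0, held the C1q genes to at most 2 UMIs and limited 6 genes of the stromal list. Of 8 endothelial genes 6 had no UMI and the list summed to 0 and 4 UMIs, of 7 neutrophil genes 6 had none and the list summed to 0 and 1, and of 7 mast cell and basophil genes 6 had none and the list summed to 0 and 1. Of 9 T and NK cell genes 8 had no UMI, with *Cd3d*, *Cd3e*, *Trac* and *Nkg7* at 0, and the 37 and 71 UMIs of that list were all *Klrd1*. Of 7 B cell genes 5 had none and the 6 and 15 UMIs were *Ighm* but for 1 of *Igkc*. Of 8 genes of plasmacytoid DC, the interferon-making DC, 5 had no UMI, *Siglech* and *Ccr9* among them. The epithelial list summed to 46 and 48 UMIs, 41 and 20 of them *Sftpc*, and the stromal reference list to 55 and 272 UMIs.

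The 15 genes with the highest ratio of DC level to the level in all other kept cells, taken from those that reached 100 CPM on average in stroma-low DC, describe what the gate drew out. *Ccl22*, a chemokine for Ccr4-bearing T cells, led with a ratio of 196 between mean CPM values, then *Cd209a* with 125. The others were *Rsad2*, *Clec4b1*, *Tnip3*, *H2-Oa*, *Ptafr*, *Bcl2a1d*, *Slamf7*, *Klrd1*, *Mcemp1*, *Gpr171*, *Klrb1b*, *Cd83* and *Lmo1*, with ratios from 75.7 to 48.1. Single barcodes made the order for a pair of them: 207 of the 268 *Ccl22* UMIs of library 2 were in 1 barcode, and 28 of the 35 *Rsad2* UMIs in 1 barcode of library 1, while library 2 had none.

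DC held the class II chains at levels that overlapped those of C1q macrophages, and differed from them in some genes that edit the peptide load. Since the gate required *H2-Ab1*, the class II genes are given as levels without a test. *H2-Aa*, the alpha chain of I-A (chr17:34282744-34287823), was at 12007 and 9493 CPM in stroma-low DC, 11521 and 8830 in C1q macrophages, 3486 and 3414 in B cells, 637 and 587 in monocytes and 8.97 and 6.31 in fibroblasts. *H2-Eb1*, the beta chain of I-E, was at 13546 and 8536 CPM in DC and 16468 and 8893 in C1q macrophages. DC and C1q macrophages overlapped for these chains and for *H2-DMb1*, at 1513 and 819 against 1199 and 636 CPM, while DC stood above monocytes and B cells.

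Some genes that edit the peptide load of class II molecules had another order, though *H2-DMb1*, which also takes part in this editing, overlapped C1q macrophages. *H2-Oa*, the alpha chain of the DM inhibitor H2-O (chr17:34092340-34095234), was at 184 and 174 CPM in stroma-low DC and in 11 of 20 and 22 of 31 barcodes. It was at 6.03 and 6.99 CPM in C1q macrophages, at 0 in monocytes of both libraries, and at 290 and 199 CPM in B cells. The pooled level in DC was 27.3 times that in C1q macrophages (counting interval 7.31 to 230, from 75 and 2 UMIs) and at least 37.4-fold higher than in monocytes, against a floor of 3 UMIs over that group, the floor used for all such bounds below. *H2-DMb2*, a beta chain of the peptide exchanger H2-M, was at 184 and 184 CPM in DC, 24.1 and 6.99 in C1q macrophages and 452 and 431 in B cells, which put the pooled level 11.4-fold above C1q macrophages and B cells 2.37-fold above DC. *H2-Ob*, the partner of *H2-Oa*, was at 50.2 and 95.4 CPM in DC, 30.1 and 14.0 in C1q macrophages and 301 and 358 in B cells. For *H2-Oa* and *H2-DMb2* the DC of both libraries lay above both macrophage values and below both B cell values. *Ciita*, the transactivator that works at the boxes printed above, was at 58.5 and 102 CPM in DC, 48.2 and 55.9 in C1q macrophages, 46.3 and 77.5 in B cells and 16.01 and 12.4 in monocytes. Over the 10 class II genes that passed the filter on low counts, the median log2 difference of DC was 0.60 over C1q macrophages, 4.22 over monocytes with genes at 0 taken at their bound (4.63 as fitted), 0.84 over B cells and 10.13 over fibroblasts. The medians over all genes were 0.03, -0.01, 0.05 and -0.17. *H2-Eb2*, another beta chain, had 9 UMIs, all in 1 barcode.

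**Figure D2:**
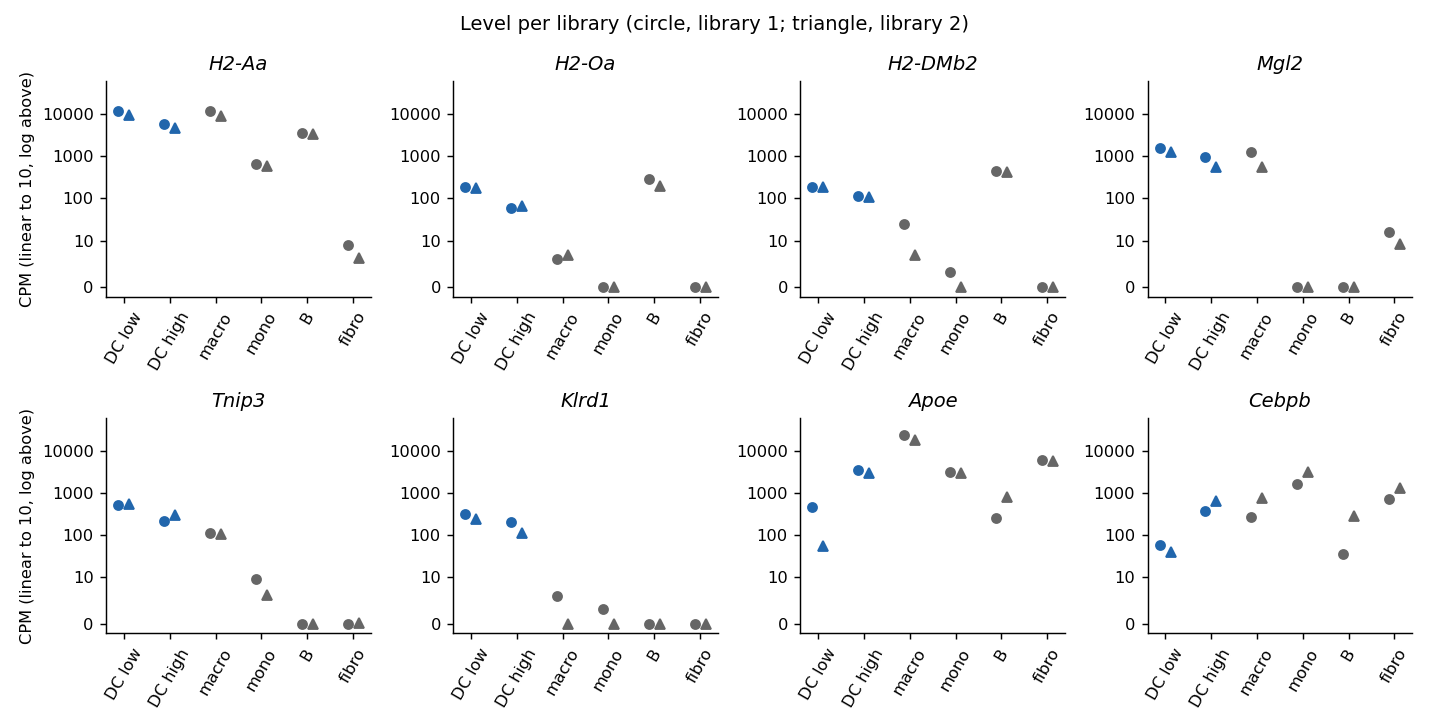
Levels of 8 genes in CPM (linear to 10, log above) in stroma-low DC, stroma-high DC, C1q macrophages, monocytes, B cells and fibroblasts, with circles for library 1 and triangles for library 2. *H2-Aa* is alike in stroma-low DC and C1q macrophages, *H2-Oa* and *H2-DMb2* are near 180 CPM in DC and above that in B cells, *Klrd1* is at 309 and 233 CPM in DC and at most 6.03 CPM in the 4 groups without DC, and *Apoe* and *Cebpb* are lower in stroma-low DC than in C1q macrophages and monocytes.

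DC with *Cd209a* alone were the main subset in both libraries. Among stroma-low DC, *Cd209a* without *Xcr1* and *Ccr7* was found in 17 of 20 and 17 of 31 barcodes, *Xcr1* alone in 1 and 7, *Ccr7* alone in 0 and 3, *Ccr7* with *Cd209a* in 2 and 1, and none of these genes in 0 and 3. No DC of either kind held both *Xcr1* and *Ccr7*, and 1 stroma-high DC of library 2 held *Xcr1* and *Cd209a*. Over all DC, *Xcr1* was in 2 of 48 and 10 of 82, *Ccr7* in 11 of 48 and 10 of 82, and *Cd209a* in 42 of 48 and 64 of 82. The *Xcr1* and *Ccr7* subsets had under 10 cells in each library, so that no test was made between subsets and the values describe these cells only.

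The *Xcr1* barcodes carried other genes of cDC1 that the rule did not use. *Irf8*, the factor that cDC1 need, had a UMI in 7 of 7 *Xcr1* barcodes and 0 of 17 *Cd209a* barcodes of library 2, at 876 and 0 CPM. *Itgae*, which encodes CD103, followed the same pattern with 7 of 7 and 0 of 17 barcodes and 245 and 0 CPM. The single *Xcr1* barcode of library 1 held 2 UMIs of *Irf8*, 1 of *Itgae* and 5 of *Naaa*, while 1 of 17 *Cd209a* barcodes of library 1 held *Irf8*. *Clec9a*, a receptor for dead cells, was at 90.2 and 0 CPM in the *Xcr1* and *Cd209a* subsets of library 2, *Cadm1*, an adhesion molecule of cDC1, at 245 and 6.02 CPM, and *Tlr3*, the receptor for double-stranded RNA, at 167 and 18.1 CPM. *Irf8* and *Itgae* thus parted these subsets barcode by barcode. *Naaa*, *Cd24a* and *Wdfy4* were shared more, with 812 and 247, 425 and 235, and 477 and 193 CPM, and *Naaa* was found in 7 of 7 and 13 of 17 barcodes.

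The *Cd209a* barcodes carried the genes of cDC2. *Mgl2* was at 1818 CPM in the *Cd209a* subset of library 2 (15 of 17 barcodes) and 64.4 CPM in the *Xcr1* subset (1 of 7), and at 1688 CPM in the *Cd209a* subset of library 1. *Itgam*, which encodes CD11b, was in 15 of 17 *Cd209a* barcodes and 0 of 7 *Xcr1* barcodes of library 2, at 181 and 0 CPM. *Sirpa*, an inhibitory receptor of cDC2, was at 102 and 0 CPM and *Tnip3*, an inhibitor of NF-kB signalling, at 831 and 64.4 CPM. These genes ran against those of the *Xcr1* barcodes. *Il1b* was at 903 CPM in the *Cd209a* subset of library 2 and 2808 CPM in that of library 1, against 361 CPM in the *Xcr1* subset. Genes that both subsets shared were *Klrd1*, at 217 and 193 CPM in the *Cd209a* and *Xcr1* subsets of library 2, *Cd83*, at 427 and 490 CPM, and the class II list, at 61701 and 48509 CPM.

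In library 2 maturation genes were gathered in very few barcodes. The mature DC list summed to 15680 CPM in the 3 *Ccr7* barcodes of library 2, against 831 CPM in its *Cd209a* subset and 696 CPM in its *Xcr1* subset. Library 1 had no barcode with *Ccr7* alone. There the list summed to 2087 CPM in the *Cd209a* subset, spread over 17 of 17 barcodes, with 116 of its 220 UMIs from *Cd83*. In library 2, a single barcode stood out. This barcode with 8583 UMIs made most of the sum in the *Ccr7* barcodes, with 25 UMIs of *Ccr7*, all 25 of *Fscn1*, which encodes the actin bundler of mature DC, 207 of *Ccl22*, 100 of *Ccl17*, all 24 of *Apol7c* and 15 of 21 of *Il4i1*, and none of *Xcr1*, *Cd209a* or *Mgl2*. A second *Ccr7* barcode held 6 UMIs of *Ccr7*, 32 of *Ccl22* and 98 of *Ccl17*, and the third held 2 UMIs of *Ccr7* and 113 UMIs of the cell cycle list. *Ccr7* alone was therefore not a mark of 1 kind of barcode here.

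**Figure D3:**
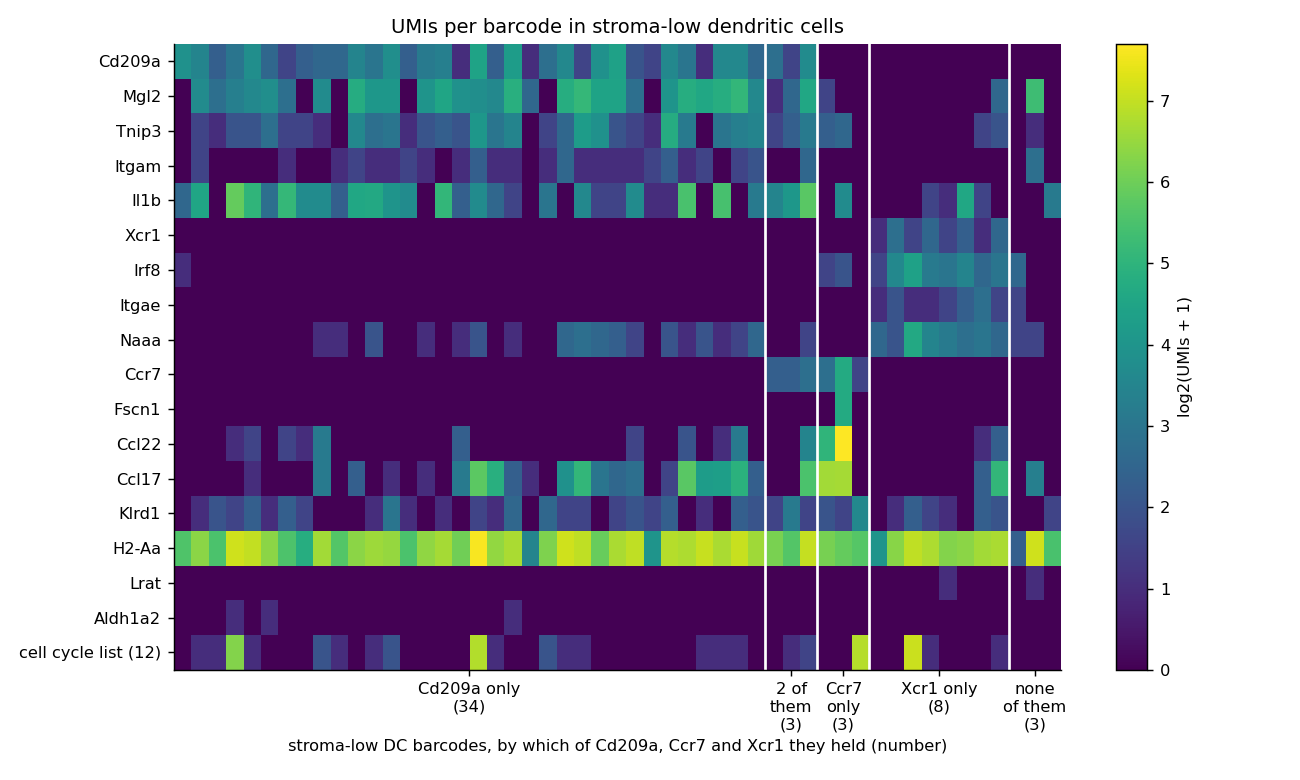
Each column is 1 of the 51 stroma-low DC barcodes of both libraries and each row a gene, or the 12-gene cell cycle list, coloured by log2(UMIs + 1). Columns are grouped by *Cd209a* only (34), 2 of the 3 genes (3), *Ccr7* only (3), *Xcr1* only (8) and none of them (3), and *Irf8* and *Itgae* fill the *Xcr1* columns while *Mgl2* and *Itgam* lie in the *Cd209a* columns.

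Stroma-low DC held more *Klrd1* and *Tnip3* and less *Apoe*, *Cebpb* and *Csf1r* than C1q macrophages. By edgeR's quasi-likelihood test on UMIs summed per library and group, with the library as a blocking term and p-values adjusted by Benjamini-Hochberg and called at 0.05, 429 of 6187 genes tested differed (6.93%), with 180 higher (2.91%) and 249 lower (4.02%) in DC. All adjusted p-values below are from this fit, a fold change is its log2 value with the standard error, and genes of the gates are left out of the counts. *Klrd1*, which encodes CD94, a lectin-like receptor best known from NK cells (chr6:129591782-129598775), was at 309 and 233 CPM in DC, in 13 of 20 and 24 of 31 barcodes, and at 6.03 and 0 CPM in C1q macrophages, in 1 of 44 and 0 of 21 (log2 difference 6.45 ± 0.76, adjusted p = 1.3e-06). In fibroblasts, which should lack it, it was found in 0.0129% and 0.0986% of cells, at median depths of 4215 and 7018 UMIs against 6058.5 and 9137 in DC. The fibroblast gate left out barcodes with *Laptm5*, *Tyrobp* or *Ptprc*. *Tnip3* (chr6:65525313-65634040) was at 510 and 529 CPM in DC and 115 and 105 in C1q macrophages (2.24 ± 0.32, adjusted p = 3.2e-05). DC of both libraries lay above both macrophage values for these genes. *Mgl2* did not separate the groups, at 1539 and 1220 against 1235 and 552 CPM (0.74 ± 0.24, adjusted p = 0.066).

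Genes of the conventional DC list and of both subsets were in part higher in DC than in C1q macrophages. The DC gate required at least 2 UMIs of 5 DC genes, so that rises of other DC genes can be partly set by it. Of 5 conventional DC genes tested 2 rose and none fell, with a median of 2.25 against 0.03 over all genes. They were *Jaml*, an adhesion molecule, at 66.9 and 210 against 18.1 and 41.9 CPM (2.25 ± 0.53, adjusted p = 0.0074), and *Dpp4*, which encodes the peptidase CD26, at 50.2 and 75.6 CPM against 0 in both libraries, at least 7.05-fold higher. Of 10 cDC2 genes 1 rose (*Tnip3*) and 1 fell (*Mmp12*, median 0.80), and of 9 cDC1 genes 3 rose and 1 fell (*Rab7b*, median 0.30). The 3 were *Cd24a*, at 75.3 and 257 against 6.03 and 6.99 CPM (4.70 ± 0.69, adjusted p = 3.2e-05), *Wdfy4*, which cross-presentation needs, at 117 and 250 against 24.1 and 27.97 CPM (2.85 ± 0.54, adjusted p = 0.00073), and *Naaa* (2.12 ± 0.48, adjusted p = 0.0046, and 0.0518 with DESeq2). Of 11 mature DC genes 4 rose and none fell (median 0.89 with genes at 0 at their bound), namely *Traf1*, *Samsn1*, *Ccl22* and *Ccl5*. *Ccl22* and *Ccl5* rested mostly on single barcodes, and DESeq2 did not call *Ccl22* (adjusted p = 0.408), with 25 of the 40 *Ccl5* UMIs of library 2 in 1 of them. None of 3 plasmacytoid DC genes tested passed (median -0.27).

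Several macrophage, monocyte-derived and lipid genes were among those lower in DC. The gates held DC to at most 2 C1q UMIs and C1q macrophages to at least 10. Falls of other macrophage genes can therefore be partly set by the gates. *Apoe*, the lipid carrier that macrophages secrete, was at 460 and 55.9 CPM in stroma-low DC and 23350 and 18024 CPM in C1q macrophages, a pooled 123-fold difference (log2 -6.59 ± 0.54, adjusted p = 1.5e-09). *Cebpb*, a factor of monocytes and macrophages, was at 58.5 and 39.5 against 271 and 755 CPM (-3.55 ± 0.44, adjusted p = 2.1e-06). *Csf1r*, the receptor for the macrophage growth factor, was at 83.6 and 62.5 against 705 and 713 CPM (-3.34 ± 0.32, adjusted p = 2.5e-08). The groups did not overlap for these genes. Of 10 monocyte-derived cell genes 6 fell (among them *Fcgr1*, *Lyz2*, *Cd14*, *Csf1r* and *Ms4a7*) and 1 rose (*Plac8*, 3.00 ± 0.67, adjusted p = 0.004), with a median of -3.05. Of 8 macrophage genes outside the gate 4 fell (*Mrc1*, *Mertk*, *Cd68* and *Adgre1*) and 1 rose, the RNase gene *Ear2* (3.29 ± 0.62, adjusted p = 0.00073). Of 14 lipid genes 3 fell and none rose (median -0.94), with *Plin2*, the lipid droplet coat, at 75.3 and 105 against 169 and 273 CPM (-1.23 ± 0.33, adjusted p = 0.019) beside *Abca1* and *Apoe*.

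For the genes with the largest differences that averaged 50 CPM or more in the higher group, bounds replaced folds, since 1 group was at 0. The platelet factor gene *Pf4* was at least 313-fold lower in DC than in C1q macrophages, *Ccl12* at least 113-fold, *Cxcl13* at least 89.6-fold, *Ms4a7* at least 79.5-fold, *C5ar1* at least 36.6-fold, *Pla2g7* at least 32.0-fold, *Ccl8* at least 27.0-fold and *Col14a1* at least 25.6-fold. DESeq2 did not call *Ccl12*, *Cxcl13*, *Ms4a7*, *C5ar1* and *Ccl8*, with adjusted p from 0.0751 to 0.392. In the other direction *Gpr171* was at least 13.9-fold, *P2ry10* at least 9.72-fold, *Tnfrsf18* at least 5.1-fold and *Ccl5* at least 9.97-fold higher in DC. *Gpr171* and *P2ry10*, receptor genes known from lymphocytes, were in 4 of 20 and 15 of 31, and in 8 of 20 and 18 of 31 barcodes, and B cells held *Gpr171* at 81.1 and 116 CPM against 41.8 and 171 in DC and *P2ry10* at 162 and 145 against 75.3 and 102. The last 3 genes that the rule named, *Hist1h2ap* (at least 15.3-fold), *Nusap1* (at least 7.05-fold) and *Racgap1* (at least 5.83-fold), are genes of dividing cells, and 49 of the 51 *Hist1h2ap* UMIs of library 1 were in 1 barcode.

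Of 14 antigen processing genes 1 rose and 3 fell against C1q macrophages, with a median of -0.14 against 0.03 over all genes, of which 6.93% were called. *Cst3*, the cathepsin inhibitor cystatin C, rose, at 15076 and 17260 against 12582 and 6796 CPM (0.83 ± 0.24, adjusted p = 0.03), a call that DESeq2 did not give (adjusted p = 0.111). Not all proteases of the list fell, as *Ctsh* was not called. The 3 that fell were *Lgmn*, *Ctss* and *Ctsz*. *Lgmn*, legumain, was at 41.8 and 42.7 against 573 and 608 CPM (-3.78 ± 0.33, adjusted p = 5e-09). *Ctss*, the cathepsin that trims the class II invariant chain, was at 1288 and 809 against 2465 and 1916 CPM (-1.08 ± 0.23, adjusted p = 0.0032). *Ctsz* was at 518 and 460 against 934 and 909 CPM (-0.90 ± 0.25, adjusted p = 0.024). Both libraries of DC were below both of macrophages for these 3 proteases. Of 7 costimulation genes only *Tnfsf9*, which encodes the 4-1BB ligand, passed, at 535 and 105 against 24.1 and 6.99 CPM (4.32 ± 0.56, adjusted p = 5.6e-06). *Cd80* had 50.2 and 49.3 CPM in DC and 0 in macrophages and missed the threshold (adjusted p = 0.056), and *Cd83* and *Cd86* overlapped between the groups.

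**Figure D4:**
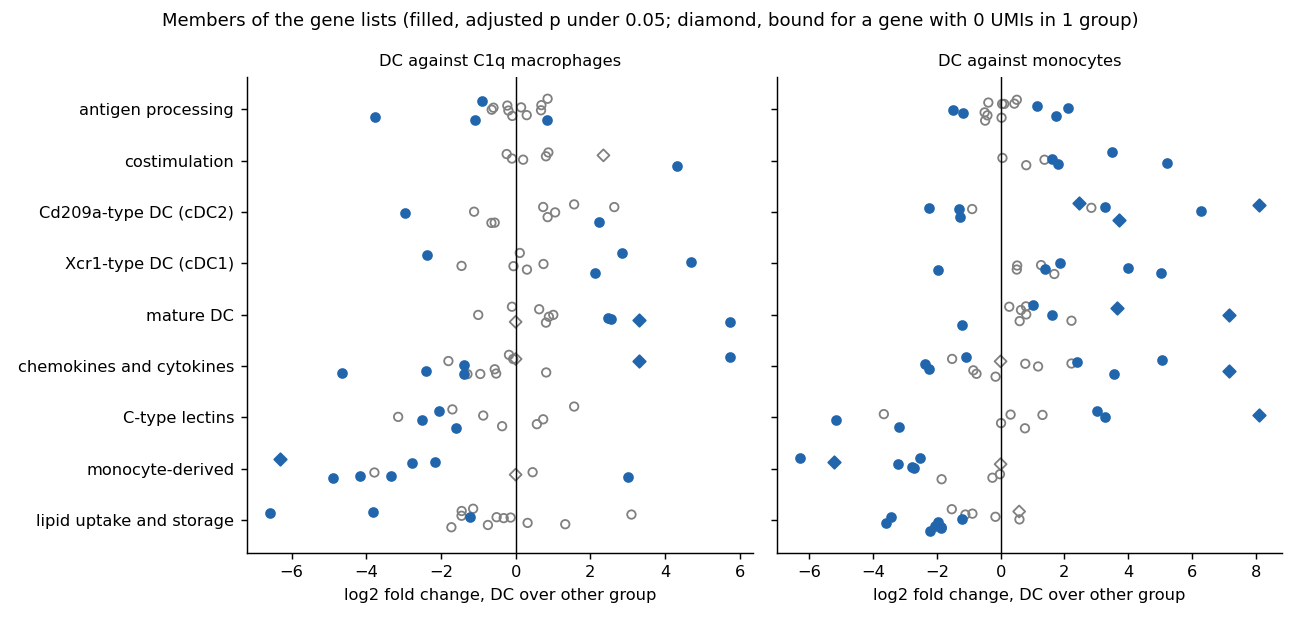
Each symbol is 1 tested gene of a list, at its log2 fold change in stroma-low DC over C1q macrophages (left) or monocytes (right), filled where the adjusted p was under 0.05, and diamonds stand at the bound of a gene with 0 UMIs in 1 of the groups. The monocyte-derived list lies mostly to the left of 0 in both panels (6 of 10 genes fell in each), and antigen processing has genes on both sides of 0.

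The comparison with monocytes, the other myeloid cells with little C1q, gave 828 of 6184 genes (13.4%), with 439 higher (7.1%) and 389 lower (6.29%) in DC. *Klrd1*, with 3.20 and 0 CPM in monocytes, and *Tnip3*, with 9.61 and 6.22 CPM, were again higher in DC, by 7.69 ± 0.69 (adjusted p = 6.6e-09) and 6.28 ± 0.44 (adjusted p = 6.8e-11). *Mgl2* had no UMI in monocytes and was at least 277-fold higher in DC, and *Ccl22* at least 143-fold, *Ccnd1*, the cyclin of growth factor response, at least 70.3-fold, *Gpr171* at least 28.4-fold, *Klrb1b* at least 22.4-fold, *Hepacam2* at least 20.5-fold and *P2ry10* at least 19.96-fold. *Ccnd1* was at 334 and 332 CPM in 13 of 20 and 26 of 31 DC. Lower in DC were *Apoc2* (at least 79.7-fold), *Ace* (at least 77.5-fold), *Ly6c2* (at least 37.6-fold), *Pla2g7* (at least 33.6-fold), *Slpi* (at least 21.6-fold), *Cd300e* (at least 16.04-fold) and *Gm21188* (at least 15.8-fold), of which DESeq2 did not call *Slpi* (adjusted p = 0.145) and *Cd300e* (adjusted p = 0.499). *Apoe* and *Cebpb* were lower than in monocytes too, the latter by -5.60 ± 0.41 (adjusted p = 1.2e-10) with 1646 and 3104 CPM in monocytes.

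Lists that mark DC stood higher against monocytes. The DC gate required at least 2 UMIs of the 5 DC genes and the monocyte gate allowed at most 1. These rises can therefore be partly set by the gates. Of the tested genes 4 of 5 of the conventional DC list rose (*Dpp4*, *Itgax*, *Jaml* and *Cd86*, median 2.87 against -0.01 over all genes), 5 of 10 cDC2 genes rose and 3 fell (median 2.65 with bounds), 4 of 9 cDC1 genes rose and 1 fell (median 1.40), and 4 of 11 mature DC genes rose and 1 fell (median 0.80). The cDC2 genes that fell were *Sirpa*, *Klf4* and *Ccl6*, which monocytes express. Of 7 costimulation genes 4 rose and none fell (median 1.62), among them *Cd83*, at 1112 and 497 against 410 and 205 CPM (1.62 ± 0.25, adjusted p = 3.7e-05), and *Icosl*, the ligand of ICOS, at 33.4 and 52.6 against 6.40 and 3.11 CPM (3.48 ± 0.75, adjusted p = 0.0018). Of 14 antigen processing genes 3 rose (*Cst3*, *Ifi30* and *Ctsh*) and 2 fell (*B2m* and *Lgmn*, median 0.04). None of 10 monocyte-derived genes rose and 6 fell (median -2.61 with bounds), none of 14 lipid genes rose and 8 fell (median -1.69), and none of 8 macrophage genes rose and 3 fell (median -1.30 with bounds). Of 3 plasmacytoid genes none passed.

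*Nr4a3* was higher and *Zeb2* and *Cebpb* were lower in DC than in both myeloid groups. Of 14 transcription factors, *Nr4a3* rose and *Zeb2* and *Cebpb* fell against C1q macrophages (median 0.20), and *Nr4a3* rose and *Zeb2*, *Spi1*, *Cebpb* and *Klf4* fell against monocytes (median 0.58). *Nr4a3*, an orphan nuclear receptor that migrating DC use, was at 134 and 122 CPM in DC, 42.2 and 14.0 in C1q macrophages and 12.8 and 3.11 in monocytes (2.14 ± 0.66, adjusted p = 0.047, and 4.25 ± 0.71, adjusted p = 9.8e-05), and the call against macrophages was lost under 7 of 9 alternatives. *Zeb2*, a repressor with a part in monocytes and cDC2, was at 83.6 and 72.3 CPM in DC, 151 and 385 in C1q macrophages and 381 and 416 in monocytes. DC of both libraries were on 1 side of both groups for these factors. *Batf3*, at 66.9 and 115 CPM, overlapped C1q macrophages at 121 and 83.9 CPM, and *Id2* was at 125 and 750 CPM with 24 of 31 DC positive in library 2 and 4 of 20 in library 1. Of 13 immediate early genes, which cell isolation can induce, 1 rose and 3 fell against C1q macrophages (median -0.48) and 7 rose and none fell against monocytes (median 0.92). *Egr1*, 1 of the 7, was at 92.0 and 572 CPM in DC and 9.61 and 96.3 CPM in monocytes, so that DC of library 1 lay below monocytes of library 2.

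Chemokine and cytokine genes went both ways. Of 15 tested, *Ccl22* and *Ccl5* rose and *Cxcl2*, *Cxcl16*, *Ccl2* and *Ccl3* fell against C1q macrophages (median -0.56), and *Ccl22*, *Cxcl16*, *Ccl2* and *Tnf* rose and *Tgfb1*, *Osm* and *Ccl6* fell against monocytes (median 0.00 with bounds, -0.16 as fitted). *Ccl2*, which draws monocytes, was at 619 and 112 CPM in DC, between C1q macrophages at 1549 and 322 CPM within each library (-1.38 ± 0.31, adjusted p = 0.0045) and monocytes, over which it was higher (3.56 ± 0.41, adjusted p = 4.6e-07). *Cxcl16*, a membrane-bound chemokine, was in the same order, at 201 and 158 CPM in DC, 416 and 517 in C1q macrophages and 12.8 and 0 in monocytes. The neutrophil chemokine *Cxcl2* was at 393 and 26.3 CPM in DC, with 41 of the 47 UMIs of library 1 in 1 barcode, against 2290 and 4523 CPM in C1q macrophages (-4.64 ± 0.55, adjusted p = 1.5e-06). *Il1b* (chr2:129364570-129371139) was present in 17 of 20 and 20 of 31 DC, at 2692 and 822 CPM, and overlapped C1q macrophages at 717 and 951 CPM and monocytes at 1252 and 907 CPM (0.82 ± 0.37, adjusted p = 0.22, and 0.77 ± 0.35, adjusted p = 0.17).

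Of 12 receptor genes, *Cx3cr1* and *Csf1r* fell and none rose against C1q macrophages (median -0.25), and 1 rose and *Cxcr4*, *Csf3r*, *Cx3cr1*, *Ifngr1* and *Csf1r* fell against monocytes (median -0.76). *Cx3cr1*, the receptor of fractalkine, was at 50.2 and 19.7 CPM in DC, 548 and 524 in C1q macrophages and 266 and 230 in monocytes, with no overlap. *Csf2ra*, a chain of the GM-CSF receptor, was at 309 and 250 CPM in DC, 283 and 294 in C1q macrophages and 317 and 289 in monocytes, and *Ccr2*, the receptor of *Ccl2*, at 201 and 234, 187 and 147, and 362 and 193 CPM. The groups overlapped for *Csf2ra*, and neither gene passed against C1q macrophages or monocytes. *Il1rl1*, the receptor for IL-33, was at 66.9 and 59.2 CPM in DC and had no UMI in monocytes (at least 13.0-fold higher in DC).

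C-type lectin genes included *Clec4a3*, which was lower in DC than in both C1q macrophages and monocytes. Against C1q macrophages none of 10 rose and *Mrc1*, *Clec4a3* and *Clec4a2* fell (median -1.24). *Mrc1*, the mannose receptor, was at 125 and 115 CPM in DC and 458 and 496 in C1q macrophages (-2.06 ± 0.39, adjusted p = 0.0008). Against monocytes *Mgl2*, *Clec10a* and *Clec4b1* rose and *Clec4a3* and *Clec4e* fell (median 0.54). *Clec4b1* was at 268 and 132 CPM in DC and 16.01 and 37.3 in monocytes (3.04 ± 0.45, adjusted p = 2.1e-05), and *Clec10a* at 125 and 42.8 against 16.01 and 3.11 CPM (3.27 ± 0.78, adjusted p = 0.0046). Of 5 pattern recognition genes tested only *Tlr7*, a sensor of single-stranded RNA, passed. *Tlr7* had no UMI in the stroma-low DC of either library, against 42.2 and 105 CPM in C1q macrophages (at least 10.1-fold lower in DC) and 51.2 and 140 CPM in monocytes (at least 13.6-fold lower). *Nlrp3* and *Tlr2* overlapped with C1q macrophages or monocytes and did not pass (medians over the list -1.20 and -0.61).

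Against B cells, which are lymphoid and also bear class II, 959 of 6187 genes differed (15.5%), 625 higher (10.1%) and 334 lower (5.4%) in DC. The B cell gate of library 1 held much epithelial RNA, with 42719 CPM over 8 epithelial genes, 37983 of it *Sftpc*, against 213 CPM in library 2, and its part in the result was not tested. The genes that led had no UMI in B cells: *Mgl2* was at least 128-fold higher in DC, *Ckb* at least 72.8-fold, *Ccl22* at least 65.9-fold, *Tnip3* at least 51.1-fold, *AA467197* at least 44.9-fold, *Ccnd1* at least 32.5-fold, *Olfm1* at least 29.7-fold and *Aif1* at least 26.5-fold. *Klrd1* had no UMI in B cells and was at least 24.9-fold higher. Lower were *Ly6d* (at least 284-fold), *Iglc2* (at least 253-fold), *Ebf1* (at least 206-fold), *Iglc1* (at least 185-fold), *Cd79b* (at least 183-fold), *Iglc3* (at least 131-fold), *Ms4a1* (at least 117-fold) and *Mzb1* (at least 96.5-fold), genes of immunoglobulin and B cell identity, and DESeq2 gave adjusted p from 0.0536 to 0.250 for *Ly6d*, *Ebf1*, *Iglc1*, *Iglc3* and *Ms4a1* and 0.0958 for *Ccl22*. Of the lists, with medians at the bounds, 9 of 10 cDC2 genes rose (2.64), 6 of 10 C-type lectins (2.71), 9 of 15 chemokines and cytokines (3.29), 5 of 7 costimulation genes (2.27) and 4 of 9 cDC1 genes (1.69), and none of those fell. Receptors gave 7 risen and 1 fallen of 12 (2.49), mature DC genes 5 and 1 of 11 (1.46), factors 5 and 1 of 14 (0.95), antigen processing 4 and 1 of 14 (0.41), monocyte-derived genes 4 and 1 of 10 (0.69), and lipid genes 3 and 0 of 14 (1.35).

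Fibroblasts, the bulk of the sort, shared little with DC, and 2953 of 6184 genes differed (47.8%), 1387 higher (22.4%) and 1566 lower (25.3%) in DC. Among the immune genes that led, *Tnip3* was a pooled 5191-fold and *Ccl22* 6018-fold higher in DC, *Samsn1* 6523-fold (counting interval 1731 to 55061, from 62 and 2 UMIs), *Nlrp3* 10101-fold (1728 to 407158, from 48 and 1 UMIs) and *Klrk1* at least 1473-fold, next to *Slamf7*, *Il1b* and *Ccl4*. Matrix and stromal genes were lower, with *Cdo1* at least 130-fold, *Mfap5* at least 86.9-fold, *Prex2* at least 78.0-fold, *Col6a3* at least 63.4-fold, *Efemp1* at least 57.1-fold, *Angptl4* at least 52.4-fold, *Serpine2* at least 47.1-fold and *Gstm2* at least 46.0-fold. All 10 stromal reference genes outside the gates fell (median -5.99). The fibroblast gate took only barcodes with none of the DC and C1q genes and none of *Laptm5*, *Tyrobp* and *Ptprc*. Low counts of other immune genes in fibroblasts, and the rises in DC, are therefore partly set by that gate. Rises were counted for 5 of 5 conventional DC, 9 of 10 cDC2, 8 of 9 cDC1, 7 of 11 mature DC, 14 of 15 chemokine and cytokine, 10 of 12 receptor, 9 of 10 lectin, 11 of 14 antigen processing, 5 of 7 costimulation, 7 of 10 monocyte-derived, 8 of 14 transcription factor and 4 of 8 macrophage genes, and falls for 1 gene each of the mature DC, chemokine and cytokine (*Il6*), antigen processing and macrophage lists and 3 of the factors. Without replicate 2 the log2 difference turned for *Irf8* (-1.74), *Ppt1* (-0.76) and *Cd36* (-4.62) of the cDC1 list and *Fscn1* (-3.96) of the mature DC list, and DESeq2 did not call *Irf8* (adjusted p = 0.321) and *Ppt1* (adjusted p = 0.0833).

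Genes by which cells store vitamin A were near absent from the stroma-low DC of this sort for retinoid fluorescence. *Lrat*, the enzyme that makes retinyl esters (chr3:82892579-82903973), had 0 and 2 UMIs in the stroma-low DC of libraries 1 and 2, in 2 barcodes, and was found in 0 of 20 and 2 of 31 (6.45%, exact Clopper-Pearson 95% interval 0.791 to 21.4%). The 20 barcodes allow a share of up to 16.8% by the same method. It was at 316 and 140 CPM in fibroblasts, in 57.2% and 43.1% of them, and the pooled level there was 43.8 times that in DC (counting interval 12.1 to 362; log2 -5.07 ± 0.61, adjusted p = 9.3e-08). *Rbp4*, the secreted carrier, was at 0 in both libraries and at least 19.96-fold lower than in fibroblasts. *Aldh1a1*, a retinaldehyde dehydrogenase, had 0 and 7 UMIs (-6.23 ± 0.42, adjusted p = 5.6e-13). Storage genes were thus low in both libraries of DC, but this was not particular to DC. *Lrat* was found in 1 of 44 and 0 of 21 C1q macrophages and 0 of 82 and 0 of 58 monocytes. In B cells it was found in 0 of 32 and 1 of 63. *Aldh1a1* was in 5 of 31 stroma-low DC and 3 of 21 C1q macrophages of library 2. After thinning each barcode to 2000 UMIs, *Lrat* was found in 0 of 20 and 1 of 29 stroma-low DC and in 39.9% and 18.8% of fibroblasts.

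Transcripts for making retinoic acid were few in stroma-low DC, and those of its receptors were found in them. *Aldh1a2*, the retinaldehyde dehydrogenase known from DC of the gut, had 2 and 1 UMIs, in 3 barcodes with *Cd209a*, and none in C1q macrophages, monocytes or B cells, which is too few to compare. *Dhrs9* had 1 and 5 UMIs and also none in those groups. *Dhrs3*, which returns retinaldehyde to retinol, was at 8.36 and 59.2 CPM in DC and 127 and 140 in C1q macrophages (-1.67 ± 0.51, adjusted p = 0.045, and 0.0721 with DESeq2). *Stra6*, *Cyp26a1*, *Aldh1a3*, *Crabp1*, *Crabp2* and *Rbp7* had no UMI. *Rara*, a retinoic acid receptor (chr11:98927818-98974942), was at 50.2 and 69.1 CPM in DC, 28.7 and 38.9 in fibroblasts (1.12 ± 0.41, adjusted p = 0.025, and 0.0538 with DESeq2, a call lost under 5 of 9 alternatives) and 115 and 168 in monocytes (-0.97, adjusted p = 0.13). Of 6 retinoid metabolism genes tested, 5 fell against fibroblasts (median -4.69 with bounds), 1 fell against C1q macrophages (-0.84), none passed against monocytes (0.02) and *Dhrs3* rose against B cells (-0.19). The list of retinoid receptors and their cofactors summed to 293 and 395 CPM in DC, 199 and 322 in C1q macrophages and 352 and 483 in fibroblasts. Of 7 such genes tested, *Rara* rose against fibroblasts (0.03), *Pparg* fell against monocytes (-0.85), and none passed against C1q macrophages (0.38) or B cells (0.27). Over all genes, 47.8% were called against fibroblasts (22.4% higher and 25.3% lower in DC). The shares called were 6.93% against C1q macrophages, 13.4% against monocytes and 15.5% against B cells. The receptor counts are thus no larger than such shares would give.

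The stroma-high barcodes held the DC transcripts summed here in about the same number of UMIs per barcode and stromal transcripts in addition. The 6 DC genes summed were *H2-Aa*, *H2-Eb1*, *Cd74*, *Mgl2*, *Klrd1* and *Tnip3*, which no rule used. Their sum was 377 and 441 UMIs per barcode in stroma-low DC and 479 and 507 in stroma-high DC, 1.27 and 1.15 times as many. In fibroblasts it was 0.324 and 0.285. *H2-Aa*, *H2-Eb1* and *Cd74* are class II genes that made most of the sum. Both DC groups passed the same *H2-Ab1* limit, so that their likeness in this sum is partly set by the rule. For 10 stromal genes that no rule used the sum was 2.30 and 8.19 UMIs per barcode in stroma-low DC, 255 and 470 in stroma-high DC and 153 and 310 in fibroblasts. All UMIs together were 5980 and 9810 per barcode in stroma-low DC, 13676 and 21777 in stroma-high DC and 4374 and 7785 in fibroblasts. For single genes, *H2-Aa* was at 71.8 and 93.1 UMIs per barcode in stroma-low DC and 79.96 and 101 in stroma-high DC, *Klrd1* at 1.85 and 2.29 against 2.75 and 2.43, and *Mgl2* at 9.2 and 11.97 against 12.96 and 12.2. Whether such a barcode was 1 cell or a DC and a fibroblast together was not tested, and no doublet caller was run.

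*Lrat* and *Rbp4* were also found in stroma-high barcodes. *Lrat* was found in 21 of 28 and 25 of 51 of them (75.0% and 49.0%), with 1.82 and 1.76 UMIs per barcode against 1.38 and 1.09 in fibroblasts, and after thinning to 2000 UMIs in 6 of 28 and 3 of 51. *Rbp4* was at 1.25 and 0.961 against 0.872 and 0.824 UMIs per barcode, but was found in only 5 of 28 and 14 of 51 of them, with 16 of the 35 UMIs of library 1 in each of 2 barcodes. In CPM, which divides by the larger total, *Lrat* was at 133 and 81.0 in stroma-high DC, below fibroblasts in each library. Stroma-low and stroma-high DC differed in 1242 of 6187 genes (20.1%), 397 higher (6.42%) and 845 lower (13.7%) in stroma-low DC. The split chose these groups, and the counts are given without a reading. The genes lower in stroma-low DC were led by *Mfap5*, *Cdo1*, *Prex2*, *C1s1*, *Col6a3*, *Abi3bp*, *Efemp1* and *Lamb1*, and those higher by *Rsad2*, *Hist1h2ae*, *Ifitm6*, *Hist1h2ap*, *Gpr35*, *Ass1*, *Ccl22* and *B4galnt1*.

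**Figure D5:**
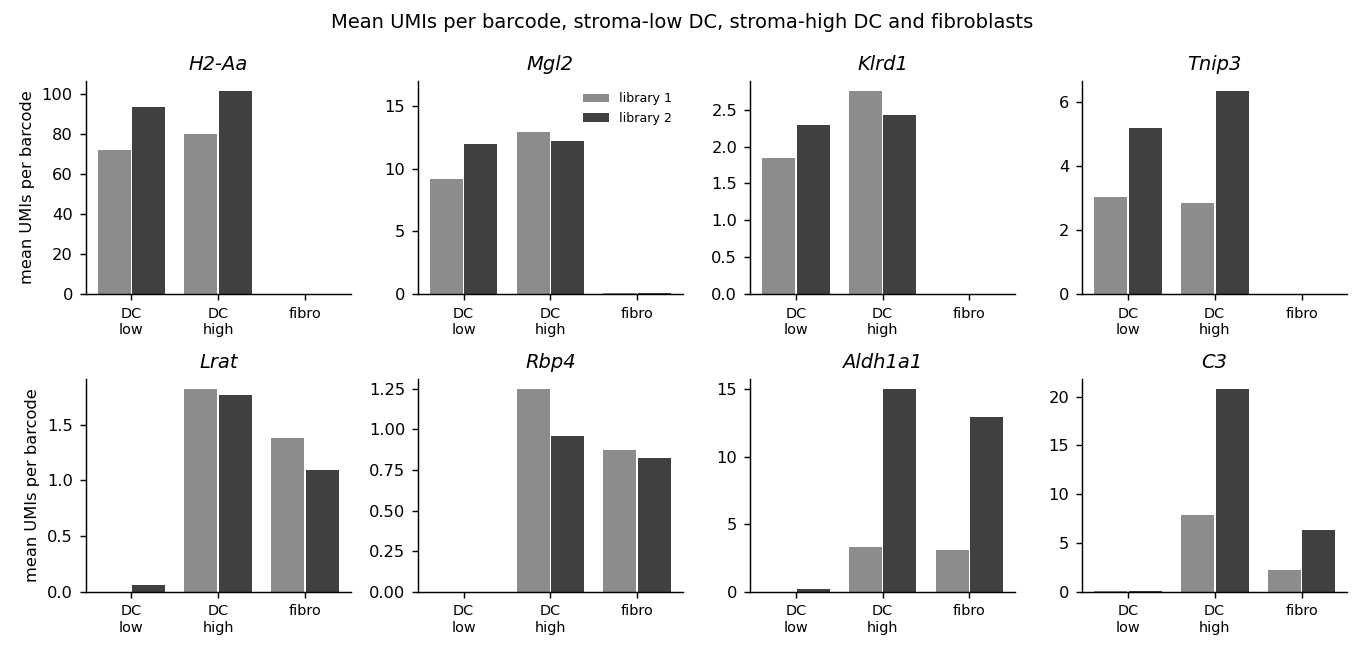
Bars show the mean UMIs per barcode of 8 genes in stroma-low DC, stroma-high DC and fibroblasts, light for library 1 and dark for library 2, each panel from 0. *H2-Aa*, *Mgl2*, *Klrd1* and *Tnip3* are present in both DC groups and near 0 in fibroblasts, and *Lrat*, *Rbp4*, *Aldh1a1* and *C3* are present in stroma-high DC and fibroblasts and near 0 in stroma-low DC.

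Some DC were dividing. A barcode was counted as dividing with at least 10 UMIs of 12 cell cycle genes, and the barcodes fell apart at this limit, since dividing DC held at least 15 such UMIs and all other DC at most 7. They made up 5 of 48 DC of library 1 (10.4%, exact Clopper-Pearson 95% interval 3.47 to 22.7%) and 14 of 82 of library 2 (17.1%, 9.66 to 27.0%). By the split they were 1 of 20 and 3 of 31 stroma-low DC and 4 of 28 and 11 of 51 stroma-high DC. In fibroblasts the same count was 1 of 7745 and 4 of 7101, in C1q macrophages 1 and 0, in monocytes 0 and 1 and in B cells 1 and 0. Dividing DC held more UMIs, with a median of 15092 and 25673 against 8830 and 14906 in the other DC. *Cd209a* was in 3 of 5 and 12 of 14 of them, *Xcr1* in 0 and 1 and *Ccr7* in 0 and 3. Of 9 cell cycle genes tested in stroma-low DC, 5 rose against C1q macrophages (median 2.65 with bounds), 7 against monocytes (3.78), 3 against B cells (2.21) and 7 against fibroblasts (6.45), and none fell. DESeq2 gave none of the 5 calls against C1q macrophages (adjusted p from 0.102 to 0.305) and none of the 3 against B cells (0.515 to 0.554), and the block was needed for all 8. The calls rest on 4 dividing barcodes: without the dividing and the mature barcodes, a choice made after seeing the data, *Stmn1* turned from higher to lower in all 4 comparisons, with log2 differences of -3.23, -1.90, -4.27 and -3.07 from C1q macrophages, monocytes, B cells and fibroblasts, past the threshold against B cells and fibroblasts.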

How the data were processed

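Cells were captured with 10x Genomics 3' v3.1 chemistry. The deposited values are UMI counts per gene and barcode, which the authors made with Cell Ranger 5.0.1 against mm10 per the submitters' processing notes, with 32285 features and no normalization, for 9669 and 10050 barcodes. Barcodes were kept when they held 200 genes or more and no more than 10% of UMIs from mitochondrial genes (9634 and 9988, with 48663016 and 93808378 UMIs). No doublet caller was run, and the libraries' methods name only scatter gates for single cells. DC membership, the gates of the other groups and the gene lists were chosen with earlier results of these data known, so no list is independent evidence.

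UMI counts were summed per library and group and tested with edgeR 4.0.16 in R 4.3.3 (TMM, filterByExpr, quasi-likelihood test, 6 groups of 2 libraries in 1 fit, library as block, Benjamini-Hochberg over all genes tested at 0.05). Cells of 1 library are not replicates and n is 2 libraries. The block pairs groups taken from the same library, since these share the cells' preparation and sequencing. A shift common to all groups of a library is thus removed, and the 6 groups share 1 estimate of the spread that is left. Genes used by the gates of a comparison were left out of its counts. DESeq2 1.42.0, other size factors, no filter, no block, a stricter DC gate, a stroma-low group with 0 stromal UMIs, a mitochondrial limit of 5%, DC with more than 2 UMIs of T cell, neutrophil or B cell genes left out and each library left out were alternatives, with 1 more chosen after seeing the data. Stroma-low groups of C1q macrophages, monocytes and B cells were used so that stromal UMIs could not separate them.

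Named genes were the 8 with the largest fold change in each direction among called genes of at least 50 CPM, the members of the lists and the 15 leading genes. Folds against a group at 0 are bounds against 3 UMIs over both libraries. Intervals of shares are exact Clopper-Pearson at 95% and, like the floors and counting intervals, cover counting error only. Shares were also computed after thinning each barcode to 2000 UMIs with a fixed seed. Gene positions are from GENCODE on GRCm38, and promoters from RefSeq on GRCm38.p6. The scripts were tested on simulated data. Tables were handled with Python 3.11.15, numpy 2.4.6, pandas 2.3.3, scipy 1.17.1 and matplotlib 3.10.9. Results for a few genes are not reported here.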

Additional observations from a re-analysis of the deposited data

How the results depend on the processing

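Only 2 libraries of 1 condition were available, so that a difference between groups is measured over 2 values each, and with 20 and 31 stroma-low DC the rarer subsets had too few cells in a library for any test. Without the replicate block, which pairs groups of the same library, fewer genes were called, with 191 against C1q macrophages, 382 against monocytes, 602 against B cells and 680 between stroma-low and stroma-high DC, where 11.03% of calls were then higher in stroma-low DC against 32.0% with the block. The cause was not tested. All other alternatives gave total counts within 1.5 times the reported ones, but not each direction: genes higher in DC than in monocytes fell from 439 to 283 and those higher in stroma-low than in stroma-high DC from 397 to 243 with stroma-low DC limited to 0 stromal UMIs, the latter to 183 without a filter on low counts, and genes lower than in fibroblasts rose from 1566 to 2352 without that filter. Of 444 gene calls, DESeq2 kept 377, other size factors 437, no filter on low counts 430 and no replicate block 334. Against C1q macrophages DESeq2 kept 51 of 70 and no replicate block 37 of 70. Against fibroblasts they kept 146 and 144 of 156. Calls against C1q macrophages that were lost without the block included *Ctss*, *Ctsz*, *Plin2*, *Lyz2* and *Cd14*. Calls of *Nr4a3* against C1q macrophages and of *Tnf* and *Traf1* against monocytes were lost under 4 or more alternatives. The share of DC among cells ran from 0.498% without replicate 2 to 0.821% without replicate 1.

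With the mature and dividing barcodes left out, a choice made after seeing the data, *Stmn1*, a gene of dividing cells, turned to -3.23 against C1q macrophages, -1.90 against monocytes, -4.27 against B cells and -3.07 against fibroblasts, since the barcodes that held it were gone. *H2-Eb2* against fibroblasts turned to -0.72 there and with stroma-low DC limited to 0 stromal UMIs, since its 9 UMIs were in 1 barcode. With 1 library left out no residual degrees of freedom remained, and log2 differences were computed without a test. Their direction turned for *Lpl* against monocytes (-4.86 to 0.74), for *Cebpb* (-2.86 to 0.91), *Sftpb* (-6.30 to 5.30) and *Ccl4* (-0.67 to 11.43) against B cells, for *Ppt1* (-0.76 to 2.12), *Cd36* (-4.62 to 3.50), *Fscn1* (-3.96 to 5.42) and *Irf8* (-1.74 to 2.28) against fibroblasts, and for *Ccl22* (-0.060 to 3.82) and *Rsad2* (-4.89 to 9.90) between stroma-low and stroma-high DC.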

Other observations

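The 363 genes compared here were chosen for at least 80 CPM in fibroblasts and a far lower level in stroma-low DC. The stromal genes that made the split were left out. Over this set the level in stroma-high DC was a median of 0.448 and 0.519 times that in fibroblasts of the same library. The 5th to 95th percentile ran from 0.252 to 0.761 in library 1 and from 0.342 to 0.759 in library 2. Because of this choice, the ratio does not describe all genes at that level in fibroblasts. Within this set, ordered by the lower ratio of both libraries, the complement genes *C3* and *C4b* came first. *C3*, the central complement component, was at 577 and 955 CPM in stroma-high DC and 516 and 809 in fibroblasts, a ratio of 1.12 and 1.18, with 8.36 and 9.86 CPM in stroma-low DC, and *C4b* had a ratio of 1.04 and 1.25. *Cygb*, a globin of fibroblasts, had 1.06 and 0.993 and *Cpxm1* 0.930 and 1.02. These genes were chosen after their values were seen, and no test was made.

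*Il6*, a cytokine of activated fibroblasts and myeloid cells (chr5:30013114-30019981), had no UMI in stroma-low DC and C1q macrophages of either library. It was at 138 and 57.6 CPM in stroma-high DC, with a UMI in 14 of 28 and 15 of 51 barcodes, and at 98.8 and 17.4 CPM in fibroblasts. Stroma-high DC were above fibroblasts in each library, and the pooled level in stroma-low DC was at least 11.1-fold lower than in stroma-high DC.

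*Il12b*, which encodes a chain of the cytokines IL-12 and IL-23, was found in few DC. A single stroma-high barcode with *Xcr1* in library 1 held 11 UMIs of it, next to 20 of *Ccl22* and 52 of *Ccl17*, and the most mature stroma-low barcode held 2.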
